A study of Mus musculus with 4 samples.

Results

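The change in mRNA level during meiotic maturation was compared between wild-type mouse oocytes and oocytes labelled Erk-/-, gene by gene. For each gene the log2 ratio of the mature (MII) to the fully grown (GV) library was taken in each genotype, and the wild-type ratio was subtracted from that of the libraries labelled Erk-/-. A positive difference therefore means that more of the GV level was left at MII, or that more was gained, in the libraries labelled Erk-/- than in wild type. Genes were chosen by 1 criterion, an FPKM (fragments per unit of transcript length, relative to all mapped fragments of the library) of at least 10 in both GV libraries, and 4564 of 23309 gene symbols met it. The values just inside that limit were 10.0012 FPKM in the lower GV library for Gtf3c1, 10.0039 for Shisa5 and 10.0076 for Unc5c, with differences of 1.54, -0.02 and 1.99. Just outside it were Sh3glb1 at 9.99, Fam149b at 9.99 and Epha4 at 9.99, with differences of -0.67, 2.24 and -1.88.

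The 4 groups were wild-type GV, wild-type MII, Erk-/- GV and Erk-/- MII oocytes of the ICR strain, from females 21 to 23 days old, with 1 library per group. GV oocytes are arrested before meiosis resumes and still hold the germinal vesicle, and MII oocytes are mature eggs arrested at the second metaphase. Each library held 60 oocytes lysed together, and the question, from the series title, is how deleting ERK bears on maternal mRNA decay. The labels do not say which Erk gene or exons were removed, or by which Cre driver, and they name PMSG and hCG, hormones used to ripen oocytes, without saying which library each applied to. The females in their treatment text are Btg4-/- and not Erk-/-, and the design text speaks of single oocytes. Because no group had a replicate, none of the differences below could be tested. A difference of at least 1 on the log2 scale (2-fold) was counted, as a rule of size for these libraries only.

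A growing oocyte fills its cytoplasm with stable mRNA and then stops transcription, so that maturation runs on stored messages. During maturation a part of this store is translated and another part is deadenylated and destroyed. Tail shortening is carried out by the CCR4-NOT deadenylase, which the adaptor BTG4 brings to maternal messages. Translation of dormant messages depends on cytoplasmic polyadenylation, in which the protein CPEB1 binds a U-rich element near the 3' end of the message. The kinase MOS switches on MEK and then ERK after meiosis resumes, and this cascade is known to drive phosphorylation of CPEB1 and to hold the egg in metaphase arrest.

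The libraries were checked against their labels. Mapk3, which encodes ERK1, had 333 FPKM at GV and 25.7 at MII in wild type, and 52.3 and 34.3 in the libraries labelled Erk-/-. It was lower in Erk-/- than in wild type at GV but not at MII, so that library is named below by its label, and every direction rests on it. The oocyte genes Zp3, Gdf9, Bmp15 and Oosp1 stood above 100 FPKM in all 4 libraries. Other oocyte markers did not. Zp1, Zp2, Padi6 (58.7 FPKM) and Nobox (6.40 FPKM) were below 100 FPKM in wild-type MII, and Kit and Dazl were below it in all 4 libraries. Of 30 cumulus and granulosa cell markers, 18 to 22 were listed at 0 in each library, among them Fshr, Amh and Foxl2 in all 4, and the markers summed to 105 and 125 FPKM in wild-type GV and MII and 94.1 and 120.4 in the libraries labelled Erk-/-. The ribosomal RNA precursor Rn45s had 118 and 641 FPKM in wild type against 589.5 and 559.9 FPKM in the libraries labelled Erk-/-, so it was low in wild-type GV alone. Summed FPKM lay between 401160 and 453226, of which the chosen genes made up 90.3% to 91.6%. FPKM is relative to the library's own total, so a lower level per gene and a larger total of other mRNA cannot be told apart. The labels do not state poly(A) selection, and under such selection a change in mRNA amount and a change in tail length cannot be told apart. Depth is unknown because no counts were used. For values inside the authors' bounds, the median half-width of those bounds was 7.93% and 9.24% of the value at GV, and 12.3% and 10.2% at MII (wild type first).

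Transcripts that were depleted during wild-type maturation were, as a body, less depleted in the libraries labelled Erk-/-. The median of the 4564 genes went from 39.8 FPKM at GV to 14.7 at MII in wild type, and from 38.1 to 25.4 in the libraries labelled Erk-/-. The median log2 maturation change was -1.52 in wild type against -0.67 in the libraries labelled Erk-/-, and its SD over genes was 2.37 and 1.67. At MII, 2605 genes (57.1%) were down by 2-fold or more in wild type and 737 (16.1%) were up. The corresponding numbers were 1945 (42.6%) and 664 (14.5%) in the libraries labelled Erk-/-. Between the genotypes the difference had a median of 0.62 (middle 50% of genes -0.27 to 1.75) and was above 0 in 3066 genes (67.2%). It reached 1 or more in 1836 genes (40.2%), called positive here, and -1 or less in 441 (9.66%), called negative, and those percentages are the background for every gene list below. Differences of 3 or more, 8-fold, were found in 427 genes and of -3 or less in 10.

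**Figure D1:**
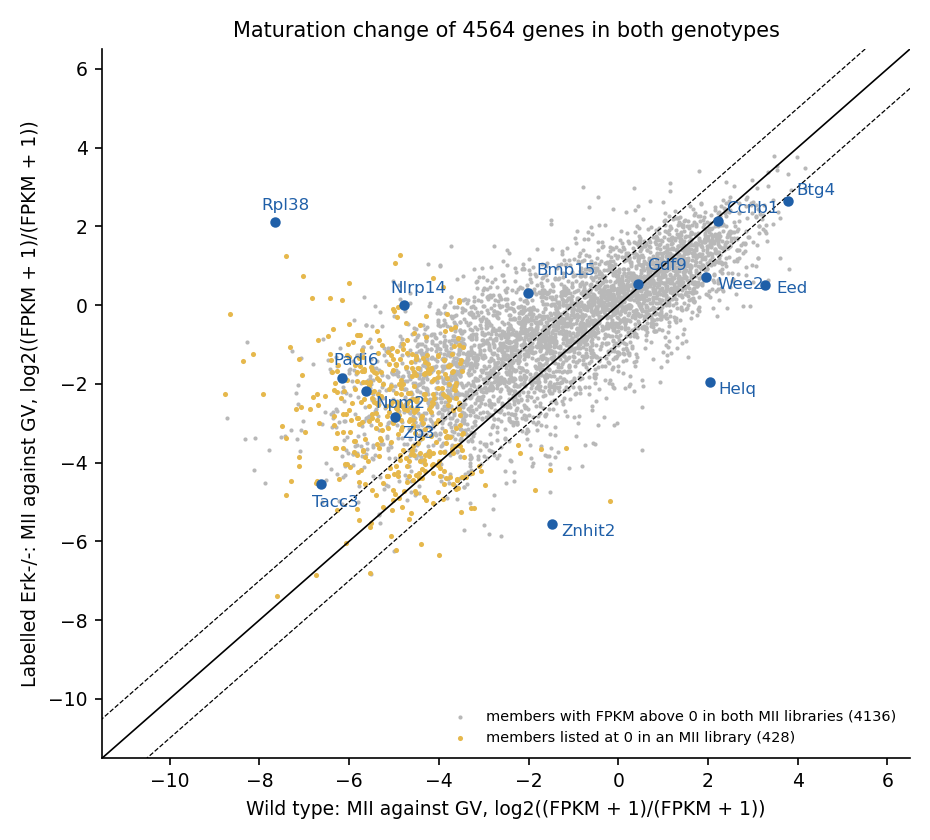
Each point is 1 of 4564 genes, with the wild-type MII to GV log2 ratio on the x axis and that of the libraries labelled Erk-/- on the y axis. The solid line marks equal change and the dashed lines a 2-fold difference. Genes on the left, depleted in wild type, lie mostly above the line (Padi6, Nlrp14, Npm2), while Btg4, Wee2 and Helq lie below it.

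The size of this excess depends on how the libraries are scaled. Dividing each library by its median-of-ratios factor, which assumes that a typical gene is equal in all libraries, moved the median difference by -0.55 to 0.07. On that scale 1321 genes were positive and 971 negative, so the positive share of genes past 2-fold was 57.6% against 80.6% as deposited. Medians after scaling are called scaled below. List medians are therefore to be read beside 0.62, the median of all genes.

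**Figure D2:**
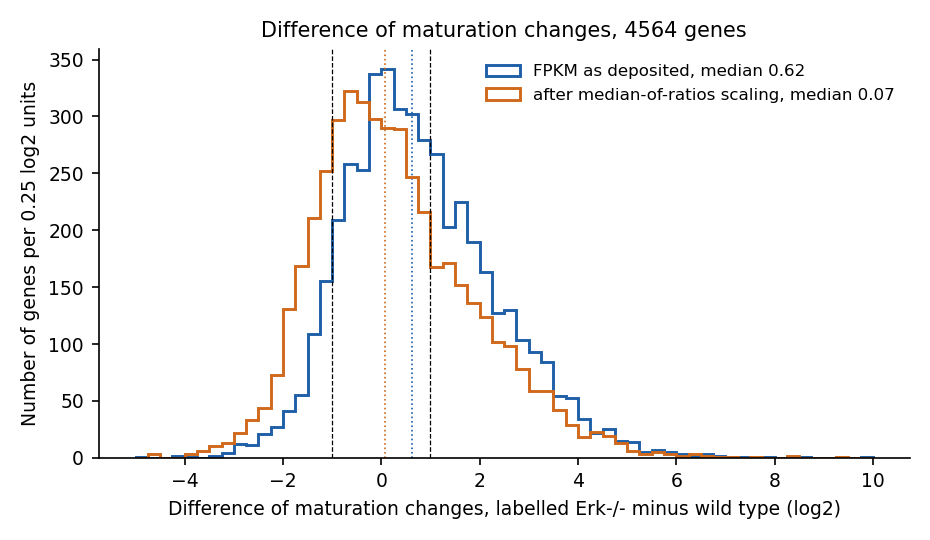
The x axis gives the difference of maturation changes in log2 units and the y axis the number of genes per 0.25 units, for FPKM as deposited and after median-of-ratios scaling. Scaling shifts the whole distribution to the left, from a median of 0.62 to 0.07, and the tail on the positive side stays longer than on the negative side.

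Genes were also sorted by their direction in each genotype. Of the 2605 genes lower in wild type, 1786 were lower in the libraries labelled Erk-/- as well, 789 were within 2-fold of their GV level there, and 30 were higher. Among the 1786 genes lower in both, the median change was -3.63 in wild type against -2.18 in the libraries labelled Erk-/-, and 970 of them were positive against 91 negative. Of the 737 genes higher in wild type, 447 were higher in both, 281 were within 2-fold in the libraries labelled Erk-/- and 9 were lower there. The genes higher in both had medians of 1.89 and 1.62. Genes within 2-fold in wild type were mostly within 2-fold in the other genotype too (885 of 1222). The wild-type change enters the difference with a minus sign, so a gene very low in wild-type MII tends to a positive difference by construction.

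A difference of ratios can come from the MII libraries or from the GV libraries. At MII, the library labelled Erk-/- was above wild type by 2-fold or more in 1695 genes (37.1%) and below it in 197 (4.32%). At GV, 334 genes (7.32%) were higher and 406 (8.9%) lower in Erk-/-. Among the 1836 positive genes, 1465 (79.8%) were higher by at least 2-fold at MII and 329 (17.9%) were lower by at least 2-fold at GV. Among the 441 negative genes, 136 (30.8%) were lower at MII and 148 (33.6%) were higher at GV in Erk-/-. Positive differences thus lay mainly in the MII libraries, while negative ones were divided about equally between the stages. When only the 1422 genes whose GV libraries lay within 1.2-fold of each other were kept, 554 (39.0%) were positive and 56 (3.94%) negative.

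The 3' ends of the messages were compared first, since the stored messages that gain poly(A) in maturation carry a cytoplasmic polyadenylation element. Sequences came from GENCODE M21 (build GRCm38), with 1 protein-coding transcript per gene, and 4276 of the 4564 genes had one. For 4018 of them the annotated 3' UTR was at least 100 bases long, and its last 100 bases were searched on the transcript strand for TTTTAT or TTTTAAT, DNA spellings of such elements. The annotated end may not be the end used in oocytes, and a match shows letters and not a working element. The motif was present in 17.9% of all 19305 transcripts with such a window. The following sites of 30 bases show it in capitals, upstream of or overlapping the last AATAAA or ATTAAA signal, for genes lower than 0, near 0 and above 0 in the difference. Coordinates are GRCm38.

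Wee2, chr6:40466756-40466785, + strand: ctttttaacataTTTTAATccagatcattg

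Orc6, chr8:85308005-85308034, + strand: tggttttttaaaTTTTATttcactaaatgt

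Cks1b, chr3:89415518-89415547, - strand: ggaaattttgcaTTTTATctgacagatctc

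Tesc, chr5:118061821-118061850, + strand: ggactccgatatTTTTATctctaatggtga

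Rcc1, chr4:132331977-132332006, - strand: gttttgaattttTTTTAATtgtataatatt

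Helq, chr5:100762170-100762199, - strand: atgaaatgtgtaTTTTAATtatacattaaa

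Ybx1, chr4:119278051-119278080, - strand: taagaacttcatTTTTAATttgtaataaag

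Bub1b, chr2:118641553-118641582, + strand: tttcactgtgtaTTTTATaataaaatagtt

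Plat, chr8:22782744-22782773, + strand: agtatatttataTTTTAATctattttagtt

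Gdf9, chr11:53437854-53437883, + strand: agagtgctgtggTTTTATgtgacggaagaa

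Slc25a48, chr13:56474180-56474209, + strand: tgtggacatgacTTTTATgtggaaatcata

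Lsm7, chr10:80852841-80852870, - strand: ttttgttttgttTTTTAATaaaattgccca

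The first 7 of these genes were negative by at least 2-fold, but the sites were not printed in proportion to the classes. Of all 798 genes with the motif, 162 (20.3%) were positive and 124 (15.5%) negative, against 40.2% and 9.66% of all genes. Bub1b (-0.52), Plat (-0.82) and Gdf9 (0.10) were within 2-fold. The mitochondrial carrier gene Slc25a48 (160.3 and 4.72 FPKM in wild type against 111 and 45.6 FPKM in the libraries labelled Erk-/-, 3.55) and Lsm7 (3.15), a subunit gene of the LSM ring that binds RNA ends, were positive, so the motif was not limited to 1 class. For Lsm7 the difference lay mostly at GV, since it had 269.8 and 170.2 FPKM across wild-type maturation and 43.8 and 250.0 FPKM in the libraries labelled Erk-/-. In Lsm7 the motif overlaps the poly(A) signal, because TTTTAAT can run on into AATAAA. In Wee2 the motif began 46 bases from the annotated end, in Tesc 46 and in Plat 89. Several messages known to be translated in maturation, among them Ccnb1, Mos, Cnot7 and Cnot6l, had no such letters in this window, which says only that these letters are not there.

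Over the 4018 genes the motif went with the course of the message. It was found in 162 of 1581 positive genes (10.2%), 512 of 2045 within 2-fold (25.04%) and 124 of 392 negative genes (31.6%). Genes without it had a median maturation change of -1.79 in wild type against -0.76 in the libraries labelled Erk-/-, and a median difference of 0.77 (n = 3220). With 1 motif the medians were 0.08, 0.08 and 0.06 (n = 676), and with 2 or more they were 0.57, 0.45 and -0.25 (n = 122). Wild-type medians thus spanned a wider range than those of the libraries labelled Erk-/-. The share at least 2-fold lower at MII was 61.8% without the motif and 30.3% with it in wild type, and 44.8% and 25.8% in the libraries labelled Erk-/-.

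**Figure D3:**
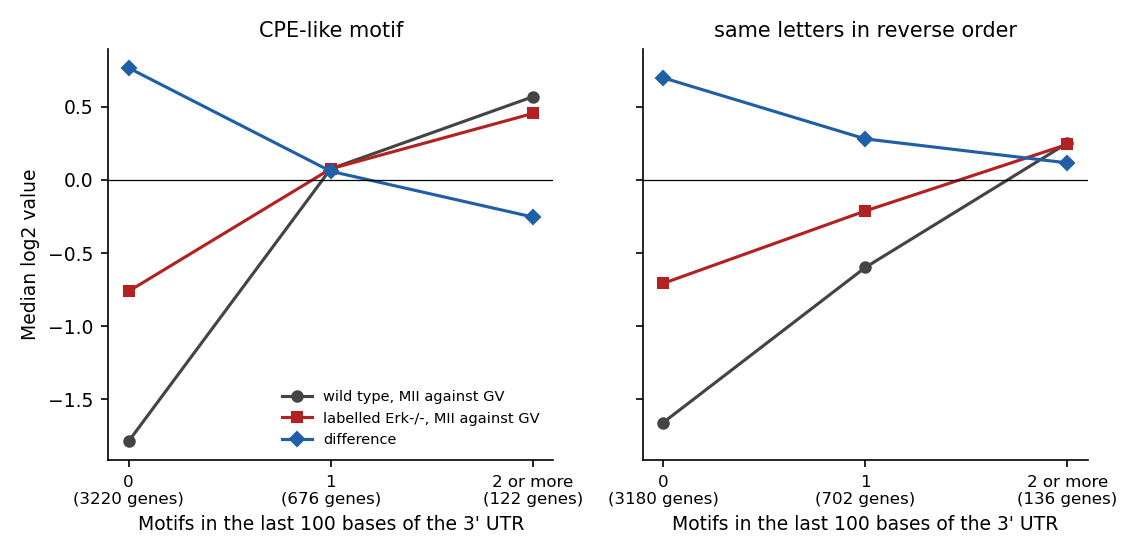
The x axis gives the number of motifs in the last 100 bases of the 3' UTR and the y axis the median log2 maturation change in each genotype and their difference. Left, the CPE-like motif, right, the same letters in reverse order. Without the CPE-like motif the genotypes lie apart (-1.79 and -0.76), with 1 motif they coincide (0.08 and 0.08), and the reversed letters give the same direction with a smaller step from 0 to 1.

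Base composition moves with the motif and is given beside it. The last 100 bases held a median of 62.5% A and T without the motif, 69% with 1 and 72% with 2 or more, and 61% in positive against 66% in negative genes. The reversed letters, TATTTT or TAATTTT, were found in 14.7% of positive and 27.0% of negative genes, a smaller gap in the same direction, and can overlap the motif where T runs meet. Genes with the motif and not its reverse (n = 438) had a median difference of 0.08 and a median of 68% A and T. Genes with the reverse and not the motif (n = 478) had 0.52 and 70%, and genes with neither (n = 2742) 0.81 and 61%. Within 4 bins of A and T content, the median difference with and without the motif was 0.06 and 1.06 in the lowest bin (up to 57%), 0.11 and 0.88 in the next, 0.06 and 0.66 in the third, and -0.11 and 0.35 in the highest (from 71%). The median difference was thus lower with the motif in each of these wide bins. The wild-type median change, which enters the difference with a minus sign, was higher with the motif in each bin. It was -0.51 with and -2.70 without the motif in the lowest bin, and 0.42 and -0.71 in the highest. Whether base composition accounts for the gap was not tested.

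Shares of other 3' UTR motifs varied less between classes, but the number of poly(A) signals also went with the difference. Annotated 3' UTRs had a median length of 813 bases in positive, 994 in within-2-fold and 758 in negative genes, and in each of 4 bins of 3' UTR length the median difference was lower with the motif than without it (0.00 and 0.97 in the shortest bin, 0.19 and 0.58 in the longest). The Pumilio motif TGTANATA was in 4.997% of positive and 5.61% of negative genes against 4.35% of all transcripts. The AU-rich letters TATTTAT were in 4.43% and 5.87% against 4.31%. A poly(A) signal was in 78.2% of positive and 85.7% of negative genes. With 0, 1 and 2 or more signals the median difference was 0.94, 0.57 and 0.32. The wild-type median change was -2.61, -1.35 and -0.34, and the median A and T content 60%, 64% and 70.5%. The 258 genes with a shorter annotated 3' UTR, to which the zona genes and many ribosomal protein genes belong, had 138 positive and 18 negative members and a median difference of 1.11.

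Zona pellucida transcripts were less depleted in the libraries labelled Erk-/-. The zona pellucida, the glycoprotein coat of the egg, is made during growth from Zp1, Zp2 and Zp3. Zp1 had 1238 FPKM at GV and 60.0 at MII in wild type, and 1103 and 305 in the libraries labelled Erk-/-, which is 4.85% and 27.6% of the GV level (difference 2.49). Zp2 had 2687 FPKM at GV and 78.7 at MII in wild type, and 1819 and 449 in the libraries labelled Erk-/- (difference 3.06). Zp3 had 4768 FPKM at GV and 151 at MII in wild type, and 3811 and 533 in the libraries labelled Erk-/- (difference 2.14). All 3 were lower at MII in both genotypes, with the GV libraries within 1.5-fold of each other and more left in the MII library labelled Erk-/-. Other secreted egg products of the same list did not follow. The cortical granule protease gene Astl had 598 FPKM at GV and 505 at MII in wild type, and 559 and 571 in the libraries labelled Erk-/- (difference 0.27), and the oocyte-secreted protein gene Oosp1 was higher at MII in both, with 2299 and 4760.1 FPKM in wild type against 1581 and 3996 FPKM in the libraries labelled Erk-/- (difference 0.29). Plat, the tissue plasminogen activator gene, was 8.44-fold higher at MII in wild type and 4.77-fold in the other genotype (difference -0.82). Of the 7 egg coat and cortical granule genes 3 were positive and 0 negative, with a median of 0.29, below the 0.62 of all genes and turning to -0.34 under scaling.

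The growth factors that the oocyte sends to its follicle cells went apart from each other. Bmp15 (mm9 chromosome X, 5891224 to 5897841) stood at 1189 FPKM at GV and 293 at MII in wild type, and 901 and 1117 in the libraries labelled Erk-/-, so it was lower at MII in wild type and slightly higher in the libraries labelled Erk-/- (difference 2.33). Its partner Gdf9 had 4139 FPKM at GV and 5635 at MII in wild type, and 3611 and 5255 in the libraries labelled Erk-/-, with almost the same change in both genotypes (difference 0.10, -0.53 under scaling). Fgf8, which stimulates glycolysis in cumulus cells together with BMP15, had 21.2 FPKM at GV and 1.63 at MII in wild type, and 24.8 and 17.1 in the libraries labelled Erk-/- (difference 2.57). Kit, the receptor for the follicle's Kit ligand, had 99.0 and 44.5 FPKM in wild type and 89.2 and 98.0 FPKM in the other genotype (difference 1.27), and Bmp6 had a difference of 0.68. Of 6 genes in this list, 3 were positive and 0 negative (median 0.98).

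**Figure D4:**
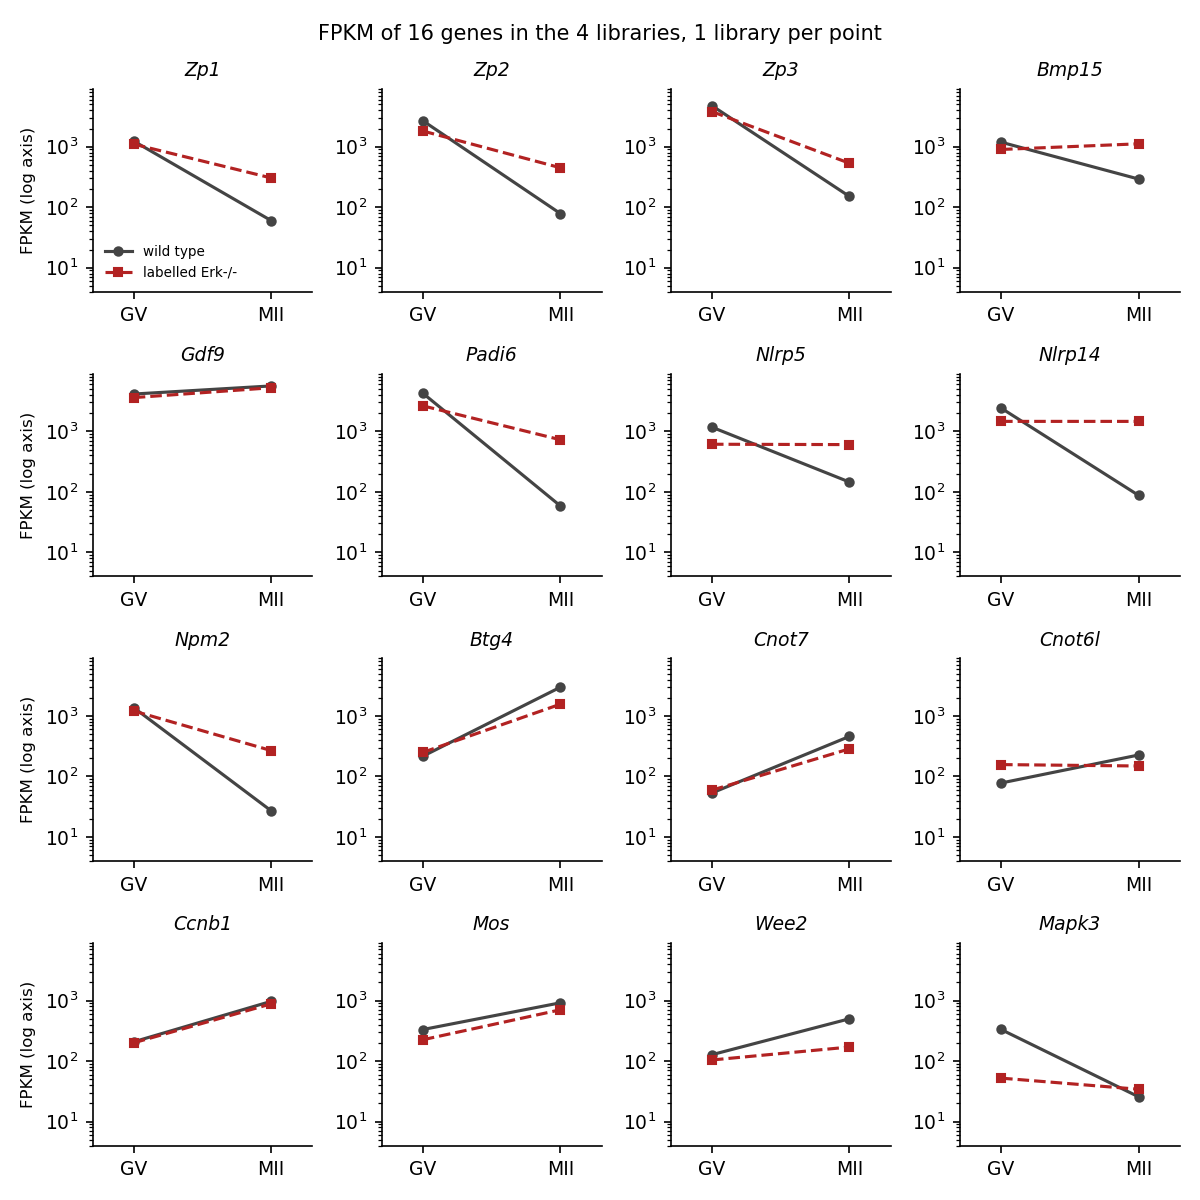
Each panel shows FPKM on a log axis at GV and MII for 1 gene, with wild type as a solid line and the libraries labelled Erk-/- as a dashed line. Each point is 1 library, so there are no error bars. The lines part at MII for the zona genes, Bmp15, Padi6, Nlrp5, Nlrp14 and Npm2, run close together for Gdf9, Ccnb1 and Mos, and lie further apart at GV than at MII for Mapk3.

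Maternal-effect genes, whose products from the egg are needed by the early embryo, had positive differences in 16 of 32 cases, or 50% against 40.2% of all genes, a gap that was not tested. Negative differences were found in 2, and their median was 1.21, 0.59 above that of all genes. Members of the subcortical maternal complex, a protein assembly beneath the egg membrane, ranged from -0.15 for Zbed3 to 3.37 for Khdc3 and Tle6 and 4.30 for Padi6 among those named here. Nlrp5 (mm9 chromosome 7, 24170916 to 24226940) stood at 1172 FPKM at GV and 145 at MII in wild type, and 612 and 604 in the libraries labelled Erk-/- (difference 2.98). Tle6 had 2245 FPKM at GV and 203 at MII in wild type, and 1694 and 1584 in the libraries labelled Erk-/- (difference 3.37). Ooep had 1242 FPKM at GV and 171 at MII in wild type, and 1143 and 1369.5 in the libraries labelled Erk-/- (difference 3.11). In wild-type MII 12.4%, 9.03% and 13.8% of the GV level was left, against 98.6%, 93.5% and 119.9% in the MII library labelled Erk-/-. Khdc3, another gene of the complex, had 495 and 28.0 FPKM in wild type against 458 and 277 FPKM in the libraries labelled Erk-/- (difference 3.37). The cytoplasmic lattice gene Padi6 had a difference of 4.30, with 1.38% of the GV level left in wild type against 27.5% in the libraries labelled Erk-/-.

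Other maternal-effect genes divided by their course in wild type. Npm2, the histone chaperone that opens sperm chromatin, had 1372 FPKM at GV and 27.0 at MII in wild type, and 1209 and 268 in the libraries labelled Erk-/- (difference 3.44). Zar1, an RNA-binding protein gene of the egg, had 2228 and 981 FPKM in wild type against 1617 and 2144 FPKM in the libraries labelled Erk-/- (difference 1.59), and the ubiquitin hydrolase gene Uchl1 had 2919 and 622 FPKM and 2658 and 1979.6 FPKM (difference 1.804). The DNA methylation cofactor gene Dnmt3l had 161 and 28.0 FPKM and 134 and 132 FPKM (difference 2.46). Members that kept or gained level in wild type had differences between -1.60 and 0.21 among those named here. Such a split is partly built in, since the wild-type change enters the difference with a minus sign. Of all genes lower in wild type 63.8% were positive, against 1.09% of those higher. Dppa3, which shields the maternal genome from demethylation, had 1265 and 1391 FPKM and 1054 and 1339 FPKM (difference 0.21), and Zbed3 had 2938 and 5963 FPKM and 2801 and 5135 FPKM (difference -0.15). Tet3, the dioxygenase that acts on the zygote's DNA, was 18.7-fold and 11.7-fold higher at MII (difference -0.68). The negative members were Btg4 and Hsf1, the heat-shock factor gene, which had 17.4 FPKM at GV and 51.3 at MII in wild type, and 64.1 and 60.1 in the libraries labelled Erk-/- (difference -1.60), with most of its difference at GV.

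Within the Nlrp family, a group of NOD-like receptor genes largely expressed in oocytes, 6 of 10 were positive and 0 negative (median 1.35), but the members did not change alike. Nlrp14 (mm9 chromosome 7, 114310504 to 114341617), needed for embryos to pass the early cleavages, had 2427 FPKM at GV and 87.6 at MII in wild type, and 1462 and 1461 in the libraries labelled Erk-/-, the largest difference of the family at 4.78. Nlrp9b had 341 and 17.0 FPKM in wild type against 257 and 149 FPKM in the libraries labelled Erk-/- (3.47), while its paralogs Nlrp9a and Nlrp9c had differences of 1.53 and 2.36. At the other end Nlrp4a, with 209 and 133 FPKM and 206 and 144 FPKM, and Nlrp4f, with 321 and 119 FPKM and 259 and 133 FPKM, differed by 0.13 and 0.47. Nlrp2 was strongly lower at MII in both (177 and 24.4 FPKM, 133 and 31.1 FPKM, difference 0.75). In wild type 8 of the 10 were at least 2-fold lower at MII, against 1 in the libraries labelled Erk-/-. Reads of such paralogs can be split between copies in ways that gene-level FPKM does not show.

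Transcripts of the deadenylation machinery were mixed. Btg4 (mm9 chromosome 9, 50924106 to 50927805), the adaptor of the deadenylase, had 216 FPKM at GV and 2987 at MII in wild type, and 250.2 and 1565 in the libraries labelled Erk-/-, a 13.8-fold and a 6.25-fold gain (difference -1.14). Cnot7, a catalytic subunit, had 53.4 FPKM at GV and 459 at MII in wild type, and 59.4 and 286 in the libraries labelled Erk-/- (difference -0.83). Cnot6l, a catalytic subunit of the other nuclease type, had 77.9 FPKM at GV and 226 at MII in wild type, and 157 and 149 in the libraries labelled Erk-/-, so it was 2.90-fold higher at MII in wild type but level in the libraries labelled Erk-/- (difference -1.60). For Cnot6l the GV libraries already differed 2.02-fold, whereas for Btg4 and Cnot7 they lay within 1.2-fold and the difference lay at MII. Cnot8, the paralog of Cnot7, had nearly the same MII level in both (49.5 and 323 FPKM, 64.0 and 331 FPKM, difference -0.33). The scaffold gene Cnot1 (34.8 and 2.68 FPKM, 41.6 and 14.3 FPKM) and the antiproliferative gene Tob2 (68.1 and 9.09 FPKM, 96.3 and 31.4 FPKM) were the 2 positive members, with 1.81 and 1.19. In all, 2 of 12 were positive and 2 negative, with a median of 0.29 as deposited and -0.31 after scaling.

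Genes of cytoplasmic polyadenylation and message storage included strong differences of both signs. Cpeb1, whose protein recognises the polyadenylation element, had 376 FPKM at GV and 21.6 at MII in wild type, and 418 and 73.6 in the libraries labelled Erk-/- (difference 1.57). The oocyte poly(A)-binding protein gene Pabpc1l had 208 and 10.6 FPKM in wild type against 194 and 89.8 FPKM in the libraries labelled Erk-/- (difference 3.07). Sympk, the scaffold of the polyadenylation complex, had 35.04 and 1.29 FPKM and 42.2 and 25.7 FPKM (difference 3.28), and the cap-binding protein gene Eif4e1b, which represses stored messages, had 1126 and 140.2 FPKM and 931 and 546 FPKM (difference 2.23). The storage protein gene Ybx2 was positive at 1.08, but its paralog Ybx1 was the lowest of the list. Ybx1 (mm9 chromosome 4, 118949932 to 118967118) stood at 69.2 FPKM at GV and 48.0 at MII in wild type, and 151 and 12.2 in the libraries labelled Erk-/- (difference -3.01), higher than wild type at GV and lower at MII. Pabpn1l, the poly(A)-binding adaptor that works with BTG4, had 231 and 773 FPKM and 455 and 569 FPKM (difference -1.42). Of 24 genes, 11 were positive and 2 negative (median 0.85). Dazl had 73.8 and 50.3 FPKM and 75.9 and 84.7 FPKM, a difference of 0.70 that scaling brought to 0.09.

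Messages described in the literature as translated during maturation had a lower median than genes at large. Of 22 such genes, 18 were at least 2-fold higher at MII in wild type against 13 in the libraries labelled Erk-/-. Their difference was positive in 2 and negative in 7, against a background of 40.2% and 9.66%, with a median of -0.41, that is -1.03 relative to all genes. Most of these genes gained level in wild type, and among all 737 genes higher in wild type 202 (27.4%) were negative and 8 (1.09%) positive. Wee2 (mm9 chromosome 6, 40392862 to 40416814), the oocyte kinase that restrains CDK1 and the first site printed above, had 128 FPKM at GV and 500.5 at MII in wild type, and 104 and 171 in the libraries labelled Erk-/- (difference -1.26). Orc6, an origin recognition gene, had 32.5 FPKM at GV and 252 at MII in wild type, and 46.0 and 154 in the libraries labelled Erk-/- (difference -1.19). Cdc20, the activator of the anaphase-promoting complex, had 115 FPKM at GV and 304 at MII in wild type, and 134 and 160.5 in the libraries labelled Erk-/- (difference -1.13). In these 3 genes the GV libraries lay within 1.5-fold, and the MII library labelled Erk-/- was the lower of the MII libraries. Ewsr1, an RNA-binding protein gene, had 13.2 FPKM at GV and 108 at MII in wild type, and 38.9 and 38.4 in the libraries labelled Erk-/-, the lowest difference of the list at -2.96, of which a part lay at GV. Slbp, the histone mRNA binding protein gene (-0.66), Bub1b, a checkpoint kinase gene (-0.52), and Obox5, a homeobox gene (-0.30), were lower than 0 without reaching 2-fold. Ccnb1, the cyclin partner of CDK1, had 208 FPKM at GV and 973 at MII in wild type, and 201 and 884 in the libraries labelled Erk-/- (difference -0.08, -0.71 scaled), and Mos had 332 FPKM at GV and 919 at MII in wild type, and 225 and 704 in the libraries labelled Erk-/- (difference 0.18, -0.45 scaled). These 2 central messages of maturation thus changed nearly alike in both genotypes as deposited, but less in the libraries labelled Erk-/- after scaling. The 2 positive members were Cdc6, with 12.9 and 0.627 FPKM and 14.0 and 3.33 FPKM (1.298), and Zp2, both of which were lower at MII.

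The ERK cascade itself was mixed. Upstream of ERK, Map2k1, which encodes MEK1, had 83.6 and 359 FPKM in wild type against 81.3 and 262 FPKM in the libraries labelled Erk-/- (difference -0.42). Among the phosphatases that switch ERK off, Dusp1 had 19.14 and 138 FPKM and 36.3 and 110.4 FPKM (difference -1.21) and Dusp7 65.9 and 236 FPKM and 115 and 285 FPKM (difference -0.52). Spry4, a feedback inhibitor that ERK induces in somatic cells and the single gene of the ERK-induced list to pass the GV limit, had 50.8 and 51.7 FPKM and 72.2 and 30.3 FPKM (difference -1.25). The positive members were Mapk3 (3.05), the adaptor gene Grb2 (3.28), the 14-3-3 gene Ywhab (3.69) and Ksr2, which was listed at 0 in wild-type MII. For Mapk3 the difference rests on the GV libraries, where Erk-/- was 6.37-fold lower. Of 16 genes, 4 were positive and 3 negative (median 0.07, -0.36 under scaling).

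Of 3 cell cycle lists, 2 had medians below that of all genes as deposited. For CDK1 and its regulators 3 of 16 were positive and 2 negative (median -0.16, -0.79 scaled). Cdk1 had 90.3 FPKM at GV and 0.0328 at MII in wild type, and 31.5 and 11.4 in the libraries labelled Erk-/-, the largest difference of this list at 5.08. Its bounds at wild-type MII were 0 to 0.0925 FPKM, so that size depends on the 1 FPKM added to each value. Cdc25b, the phosphatase that activates CDK1 in oocytes, had 73.7 FPKM at GV and 6.13 at MII in wild type, and 75.1 and 31.0 in the libraries labelled Erk-/- (difference 2.14). Cdkn1b, the third positive gene, was listed at 0 in wild-type MII. Cks1b, a CDK-binding subunit gene, was negative (-1.26), with Erk-/- GV 1.93-fold above wild-type GV, and Plk1 was nearly level (-0.14). Spindle and kinesin genes had 6 of 34 positive and 4 negative (median -0.09, a sign that changed with the GV limit). After scaling 1 was positive and 12 were negative (median -0.70), and among genes with GV libraries within 1.2-fold the median was 0.59 against 0.51 for all genes. The negative ones were Rcc1 (-1.89), which loads RAN on chromosomes, the midzone bundler gene Prc1 (-1.56), the centromeric histone gene Cenpa (-1.39) and the kinetochore gene Ndc80 (-1.24). All 4 were higher in Erk-/- GV than in wild-type GV, from 1.68-fold for Prc1 to 3.05-fold for Rcc1. Positive ones included Aurka (167 and 93.4 FPKM, 89.1 and 112 FPKM, 1.16), Birc5 of the chromosomal passenger complex (594 and 197 FPKM, 695 and 569.9 FPKM, 1.305) and Tacc3 (545 and 4.49 FPKM, 479.8 and 19.7 FPKM, 2.10). Tacc3 stayed far below its GV level in both genotypes. In the list of the anaphase-promoting complex, spindle checkpoint and cohesin, 12 of 29 were positive and 2 negative (median 0.74), close to the background, and the median was slightly below 0 among genes with 100 FPKM or more at GV.

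Housekeeping machines that were depleted in wild type were less depleted in the libraries labelled Erk-/-. Cytosolic ribosomal protein genes were lower at MII in 71 of 79 in wild type against in 53 in the libraries labelled Erk-/-, with medians of 9.69% and 24.5% of the GV level left. Their difference was positive in 50 and negative in 6 (median 1.46). The positive share of 63.3% was near the 63.8% of all genes lower at MII in wild type. Rps29 had 867 FPKM at GV and 8.09 at MII in wild type, and 665 and 366 in the libraries labelled Erk-/- (difference 5.72). Rps15 had 633 FPKM at GV and 0.504 at MII in wild type, and 218 and 29.1 in the libraries labelled Erk-/- (difference 5.86), so it was lower at MII in both genotypes but nearly lost in wild type. Rpl38 had 354 FPKM at GV and 0.768 at MII in wild type, and 38.7 and 172 in the libraries labelled Erk-/-, the highest difference of all named genes at 9.77, and it was low in Erk-/- GV and in wild-type MII. At wild-type MII the bounds were 0 to 0.844 FPKM for Rps15 and 0 to 4.05 for Rpl38, so the size of both differences depends on the 1 FPKM added. The list was not uniform, since Rpl19, with 237 and 23.2 FPKM and 317 and 8.76 FPKM, was at -1.73. Ribosomal protein genes have many processed pseudogenes, and their values can depend on how the authors assigned reads.

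Subunits of the proteasome and of the respiratory chain had the same direction. In the lists that follow, positive shares ran from 45.5% to 60%, against 40.2% of all genes. Most members of each list were lower at MII in wild type, and of all genes lower there 63.8% were positive. These gaps were not tested. Of 30 proteasome genes, 16 were positive and 3 negative (median 1.14), with Psmb5 at 56.6 FPKM at GV and 0.126 at MII in wild type, and 38.9 and 44.9 in the libraries labelled Erk-/- (5.88). Psmb6, another catalytic core subunit, was on the other side (128 and 117 FPKM, 244 and 80.9 FPKM, -1.46). Respiratory complex I had 18 of 30 positive and 0 negative (median 1.18, but near 0 among genes with 100 FPKM or more in both GV libraries), as in Ndufb4 with 388 and 12.8 FPKM in wild type against 226 and 124 FPKM in the libraries labelled Erk-/- (3.96). Complexes II to V had 24 of 40 positive and 5 negative (median 1.56). Atp5e, a subunit gene of ATP synthase, had 1456 FPKM at GV and 27.0 at MII in wild type, and 1245 and 574 in the libraries labelled Erk-/- (4.59), and Uqcrfs1, the Rieske protein gene of complex III, had 28.9 and 19.4 FPKM and 103 and 8.22 FPKM (-2.94). Translation factors were positive in 26 of 49 and negative in 3 (median 1.03), as in Eif3g with 162 and 0.197 FPKM and 131 and 9.05 FPKM (3.38). Glycolysis and citric acid cycle genes were positive in 11 of 19 and negative in 1 (median 1.26), as in Pkm with 348 and 15.3 FPKM and 331 and 109 FPKM (2.83). Mitochondrial ribosomal proteins were positive in 20 of 44 and negative in 5 (median 0.83). Mitochondrially encoded proteins were not analysed here. Leaving the ribosomal, proteasome and respiratory genes out altogether gave 1708 positive and 422 negative genes.

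**Figure D5:**
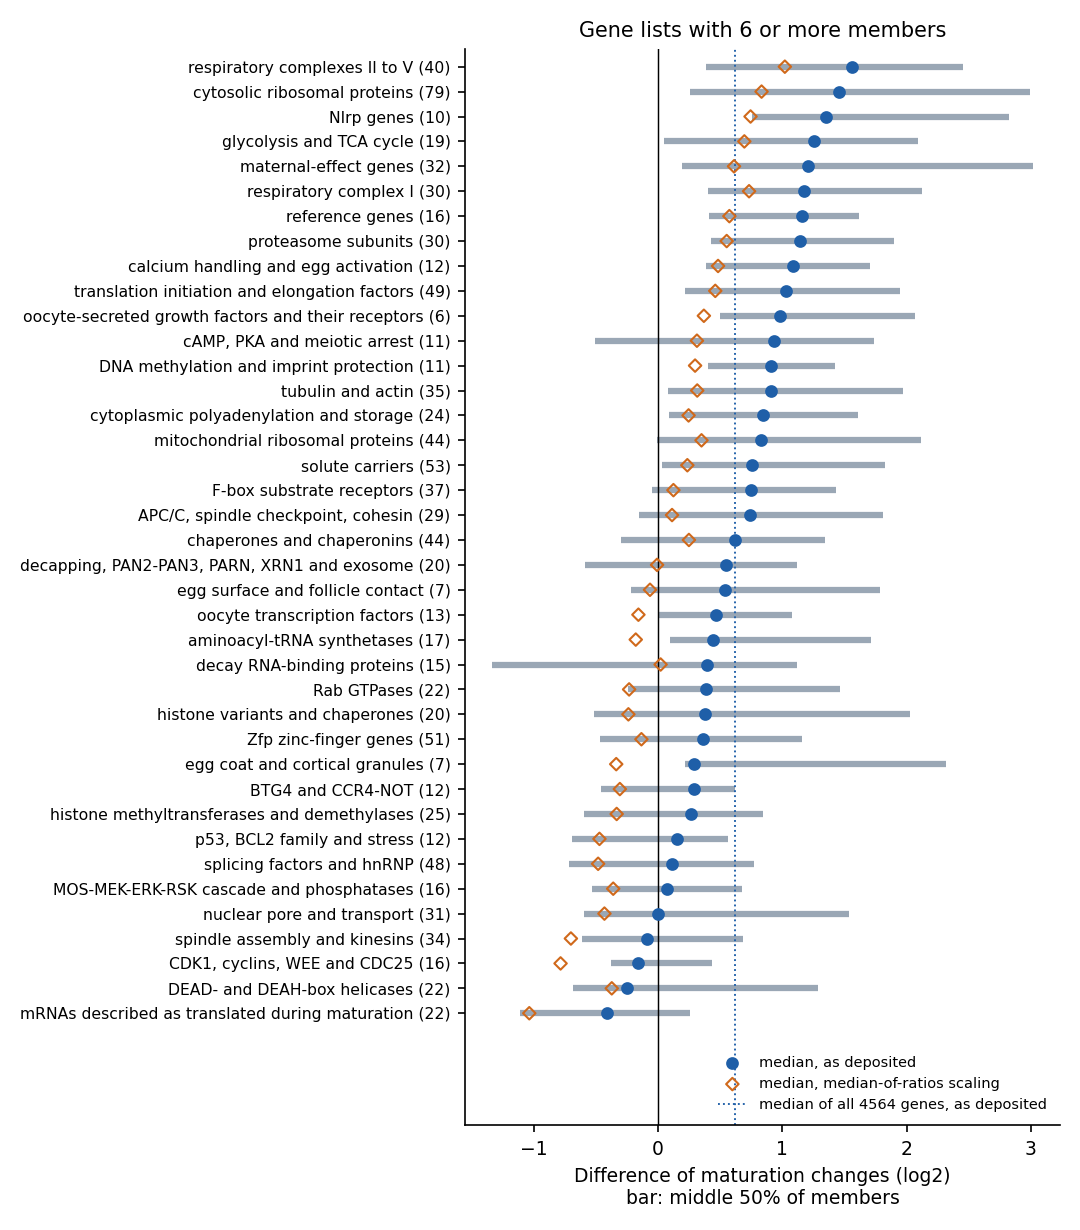
For each gene list with 6 or more members (number in brackets), the filled circle is the median difference of maturation changes, the grey bar the middle 50% of members and the open diamond the median after median-of-ratios scaling. Respiratory complexes II to V (1.56) and cytosolic ribosomal proteins (1.46) are at the top and messages translated during maturation (-0.41) at the bottom, while the dotted line marks 0.62 for all genes.

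Genes often used as references for normalisation were among those that differed. Of 16, 9 were positive and 0 negative (median 1.16), a positive share of 56.25% against 40.2% of all genes. In wild type 12 of the 16 were lower at MII, and of all genes lower there 63.8% were positive. After scaling 5 were positive and 2 negative. Actb had 72.5 FPKM at GV and 4.42 at MII in wild type, and 147 and 31.7 in the libraries labelled Erk-/- (1.58), and Gapdh had 59.0 and 22.2 FPKM in wild type against 32.4 and 25.9 FPKM in the libraries labelled Erk-/- (1.06, 0.45 under scaling). The beta-tubulin gene Tubb5 had 80.8 FPKM at GV and 1.39 at MII in wild type, and 90.9 and 40.9 in the libraries labelled Erk-/- (3.96). The gamma-actin gene Actg1 was at 3.56, and the tubulin and actin list as a whole had 17 of 35 positive and 2 negative (median 0.91).

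Signalling genes that hold the oocyte in arrest or prepare it for activation had shares of positive genes near the background in 2 of 3 lists. Gpr3, the receptor whose cAMP signal keeps meiosis arrested, had 45.4 FPKM at GV and 11.1 at MII in wild type, and 76.5 and 60.3 in the libraries labelled Erk-/- (1.60), and Gnas, the G protein it acts through, had 443 FPKM at GV and 6.49 at MII in wild type, and 278 and 88.5 in the libraries labelled Erk-/- (4.25). Of 11 genes of the cAMP list, 5 were positive and 1 negative, and 4 and 4 after scaling. In calcium handling and egg activation 6 of 12 were positive and 0 negative (median 1.09). Itpr1, the receptor that releases calcium at fertilization, had 33.9 and 23.7 FPKM and 16.4 and 28.2 FPKM (1.24), with the genotypes close at MII and apart at GV. Camk2g, the kinase that responds to that calcium, had 75.4 and 5.73 FPKM and 79.0 and 37.9 FPKM (2.46), and the calcium store protein gene Calr had 448 and 21.6 FPKM and 425 and 168 FPKM (2.98). At the egg surface Cd9, required for sperm fusion, had 82.3 and 9.34 FPKM and 200.1 and 101 FPKM (2.02), and Folr4, which encodes the sperm receptor Juno, had 334 FPKM at GV and 30.2 at MII in wild type, and 329.7 and 122 in the libraries labelled Erk-/- (1.998). In that list of 7, 3 were positive and 0 negative (median 0.54, -0.07 scaled).

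Nuclear regulators were mixed. Oocyte transcription factors were positive in 5 of 13 and negative in 0 (median 0.47, -0.16 scaled), with Nobox at 335 and 6.40 FPKM and 309 and 36.5 FPKM (2.46) and Lhx8 at 95.1 and 3.91 FPKM and 135 and 44.7 FPKM (2.71). Both of these early oocyte factors were lower at MII in the 2 genotypes. In DNA methylation and imprint protection 4 of 11 were positive and 0 negative (median 0.91), and Uhrf1, the partner of the maintenance methyltransferase, had 483 FPKM at GV and 159 at MII in wild type, and 392 and 478 in the libraries labelled Erk-/- (1.88). Histone methyltransferases and demethylases had 3 of 25 positive and 3 negative (median 0.27, -0.33 scaled). Eed, a core subunit gene of Polycomb complex 2, had 18.7 FPKM at GV and 189 at MII in wild type, and 72.5 and 103 in the libraries labelled Erk-/- (-2.77), so its difference lay mostly at GV. Kdm6b, which removes the mark that complex sets, was higher at MII in both (21.9 and 161 FPKM, 40.2 and 106 FPKM, -1.45). Histone variants and chaperones had 7 of 20 positive and 3 negative (median 0.38, -0.24 scaled), splicing factors 11 of 48 and 6 (median 0.11, -0.48 scaled), and nuclear pore and transport genes 10 of 31 and 5 (median 0.00, -0.43 scaled). After scaling splicing factors had 8 positive and 16 negative, and nuclear pore genes 7 and 12.

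The remaining lists are given as positive genes of all, negative genes, and the median. Decapping and exonuclease genes had 5 of 20 positive and 2 negative (median 0.55, -0.01 scaled), and RNA-binding proteins of decay 5 of 15 and 5 (median 0.40), with Nanos2 (-2.38) and the m6A demethylase gene Alkbh5 (2.74) at its ends. Chaperones had 19 of 44 and 3 (median 0.62), solute carriers 22 of 53 and 3 (0.75), F-box receptors 14 of 37 and 3 (0.75) and aminoacyl-tRNA synthetases 6 of 17 and 1 (0.44, -0.18 scaled). Rab GTPases had 7 of 22 and 0 (0.38, -0.23 scaled), Zfp genes 15 of 51 and 5 (0.36, -0.13 scaled), DEAD- and DEAH-box helicases 7 of 22 and 3 (-0.25) and p53, BCL2 family and stress genes 2 of 12 and 2 (0.15, -0.47 scaled). For the last, Mdm2 (-1.19) and Mdm4 (-1.11), which restrain p53, were the negative members. Esr2 (1.33) and Bmpr1b (1.62) of the cumulus and granulosa list, Pecam1 (-0.33) of the blood and ovarian list, and Eif1ax, Mdm2, Hspa1a and Hspa1b of the early embryo list passed the GV limit.

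At the extremes of all genes were several with no common list. Among genes with at least 100 FPKM in both GV libraries, those above 0 in both MII libraries with the highest differences after the pseudogene Rpl34-ps1 included Rps15, Rps29, Chchd2, Timm9 and Nlrp14. Chchd2, a mitochondrial stress-response gene, had 383 FPKM at GV and 5.44 at MII in wild type, and 256 and 198 in the libraries labelled Erk-/- (5.53), and Timm9, a chaperone of mitochondrial protein import, had 221 and 1.83 FPKM in wild type against 176 and 69.7 FPKM in the libraries labelled Erk-/- (4.97). Tmem255b (6.10) and Vamp8, a vesicle fusion gene with 47.9 FPKM at GV and 0.144 at MII in wild type, and 49.8 and 48.9 in the libraries labelled Erk-/- (5.39), were high at a lower level. Among genes above 0 in both MII libraries, the lowest were C1qtnf5 (-4.21), Znhit2 (-4.07) and Helq (-3.99). Helq (mm9 chromosome 5, 101191167 to 101227619), a DNA repair helicase gene, had 24.7 FPKM at GV and 104 at MII in wild type, and 44.4 and 10.7 in the libraries labelled Erk-/-. It was 4.23-fold higher at MII in wild type and 4.14-fold lower in the other genotype, with bounds at MII of 97.1 to 105 and 9.42 to 12.0 FPKM. Znhit2 had 28.4 FPKM at GV and 9.55 at MII in wild type, and 92.7 and 0.993 in the libraries labelled Erk-/-, so it was lower at MII in both. At 100 FPKM or more the lowest was Rn45s at -2.50, ahead of Rpl19, Clhc1, Pigyl, Prc1 and Tesc. Tesc, a calcium-binding protein gene, had 140.3 FPKM at GV and 372 at MII in wild type, and 223 and 207 in the libraries labelled Erk-/- (-1.51).

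Differences were seen at every GV level. When genes were divided into 5 bins by the lower GV value, the median difference was 0.47, 0.63, 0.63, 0.58 and 0.82 from the lowest bin (10.0012 to 15.5 FPKM) to the highest (77.4 to 4372). The share of negative genes was 14.1% in the lowest bin and 5.15% in the highest, and that of positive genes 35.4% and 46.3%. Genes with values inside the authors' bounds in all 4 libraries numbered 3326. In the wild-type MII library 406 genes were listed at 0 and in the MII library labelled Erk-/- 60, of which 38 in both. An exact 0 can be a failed estimate, and no fold is given for such genes. Values below 1 FPKM at wild-type MII, as in Cdk1, Psmb5, Eif3g, Rps15, Rpl38 and Vamp8, are near that floor. The size of their differences depends on the 1 FPKM added to each value.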

How the data were processed

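RNA from 60 pooled oocytes per library was sequenced in 4 libraries, 1 each of wild-type and Erk-/- GV and MII oocytes. The authors deposited FPKM per gene with a lower and an upper bound. CASAVA 1.8, TopHat and the build mm9 are named in the submitters' processing notes. No source used here states the program that computed FPKM, its annotation, poly(A) selection or strand. FPKM is normalized to transcript length and to the mapped reads of each library, so it gives no mRNA amount per oocyte.

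From these values FPKM was summed per symbol (260 symbols were on several lines, 19 of them among the chosen genes), 1 FPKM was added, and log2 ratios were taken with Python 3.11.15, pandas 2.3.3, numpy 2.4.6 and scipy 1.17.1. Some FPKM lay outside their own bounds (660 to 952 chosen genes per library). Bounds are quoted only where the value lies inside. No p-value, SD or interval between samples could be had with 1 library per group. The calculation was checked on simulated data.

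The genes, the 44 gene lists and the comparison were chosen with earlier results of these data known. Genes named by rule (189) were the 12 highest and 12 lowest differences, extremes at a higher level, up to 4 per list and a fixed set. The extremes at a higher level were the 8 highest and 8 lowest among genes of at least 100 FPKM in both GV libraries. All highest and lowest genes were taken from those above 0 in both MII libraries and on 1 line of each file. Their symbols were other than a Gm, Rik, LOC or accession-like name. Genes picked per list had only to be above 0 in both MII libraries, and the fixed set had none of these limits. Another 50 named genes were added after their values were seen. Not every gene of these lists is reported here. The 3' UTRs came from GENCODE M21 basic (GRCm38), with 1 protein-coding transcript per gene, the best APPRIS principal isoform and then the longest 3' UTR. Gene positions are the files' own mm9 loci. Alternatives were other pseudocounts, GV limits, scalings, bounds, windows and gene sets. Those with GV libraries within 1.2-fold and the reversed motif, among others, were added after the data were seen.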

Additional observations from a re-analysis of the deposited data

Results flagged for a closer look

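A small set of genes was changed by at least 2-fold in opposite directions in the 2 genotypes, and with 1 library per genotype and stage the difference was not tested. In 30 genes wild-type MII was below wild-type GV, while the MII library labelled Erk-/- was above its GV library. In 22 of the 30 the GV libraries also lay at least 2-fold apart, with a median log2 ratio of -1.38 (Erk-/- over wild type), and 3 were listed at 0 in wild-type MII. The opposite course was found in 9 genes, of which 6 lay at least 2-fold apart at GV, with a median log2 ratio of 1.33. Under median-of-ratios scaling all 30 and all 9 kept opposite signs. That outcome was fixed in advance and is no check, since the scaling shifts each maturation change by less than 2-fold.

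Mitochondrial and ribosomal subunit genes were among the 30. Only such genes are described here, others of the 30 belong to neither group, and a share of these groups was not tested. Rpl38, a large-subunit ribosomal protein gene, had the difference of 9.77 described above. Ndufa2, of respiratory complex I, had 168 FPKM at GV and 7.91 at MII in wild type, and 55.05 and 115 in the libraries labelled Erk-/- (difference 5.30). Atp5j, of the ATP synthase, had 42.4 FPKM at GV and 2.26 at MII in wild type, and 22.8 and 66.6 in the libraries labelled Erk-/- (difference 5.24), and Atp5h, of the same enzyme, had 160.1 FPKM at GV and 28.7 at MII in wild type, and 36.8 and 94.1 in the libraries labelled Erk-/- (difference 3.77). In each of these Erk-/- GV was below wild-type GV, from 1.86-fold for Atp5j to 9.13-fold for Rpl38. The cytochrome oxidase gene Cox6a1 had 573 FPKM at GV and 238 at MII in wild type, and 273 and 677 in the libraries labelled Erk-/-. Pam16, a motor subunit gene of mitochondrial import, had 251 FPKM at GV and 119 at MII in wild type, and 220.0 and 450.1 in the libraries labelled Erk-/-, with GV libraries only 1.14-fold apart.

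The 9 genes were Asap1, H2afx, Helq, Mospd1, Pdxp, Ppan, Rad1, Tmem11 and Tor1a. Only Helq (difference -3.99), Rad1 and H2afx are described, and a share of DNA damage or repair genes was not tested. Rad1, of the DNA damage checkpoint clamp, had 13.5 FPKM at GV and 31.5 at MII in wild type, and 42.0 and 17.6 in the libraries labelled Erk-/-. H2afx, the histone variant that marks DNA breaks, had 17.1 FPKM at GV and 37.6 at MII in wild type, and 85.4 and 31.1 in the libraries labelled Erk-/-. For Rad1 and H2afx the GV libraries lay further apart than the MII libraries, whereas Helq differed 9.74-fold at MII and 1.79-fold at GV.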

How the results depend on the processing

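Each library stands for its group alone, so leaving out a replicate was not possible, and no paired analysis was possible because each group had 1 library. For the named genes, 2500 values under the alternatives moved little and 66 moved more. Many of the 2500 are no check, since alternatives that only change which genes are kept cannot move a gene's own difference. Median-of-ratios scaling moved 42 values and kept 197, and the bounds nearest to 0 moved 11 and kept 101. A pseudocount of 5 moved 8 and kept 231, and scaling to equal sums moved 5 and kept 234. None that had passed 2-fold changed sign, an outcome fixed in advance for the scalings, which shift a difference by less than 2-fold. Against 1836 positive and 441 negative genes and a median of 0.62, the direction of the excess was kept under every alternative run, but its size was not, and the cause was not tested. Median-of-ratios scaling gave 971 negative genes and a median of 0.0677. The bounds nearest to 0, over the 3326 genes inside their bounds, gave 902, 126 and 0.0650. Genes whose GV libraries lay within 1.2-fold gave 554, 56 and 0.51. A GV limit of 100 FPKM gave 320, 32 and 0.89, a limit of 30 gave 984 and 172, a limit of 5 gave 667 negative genes, and no GV limit with a mean of at least 1 FPKM gave 4120 and 1881, where other numbers of genes are tested. A pseudocount of 5 gave a median of 0.41, and leaving out genes listed at 0 at MII 0.51. List medians changed sign as follows. Under median-of-ratios scaling they were -0.34 for the egg coat, -0.0654 for the egg surface, -0.16 for oocyte transcription factors, -0.31 for CCR4-NOT, -0.0085 for decapping, -0.36 for the ERK cascade, -0.18 for tRNA synthetases, -0.48 for splicing, -0.24 for histone variants, -0.33 for histone methyltransferases, -0.47 for p53, -0.23 for Rab and -0.13 for Zfp genes. Scaling the libraries to equal sums gave -0.0817 for the ERK cascade and -0.0442 for splicing. With GV libraries within 1.2-fold they were 0.59 for the spindle, -0.27 for splicing, 0.48 for the nuclear pore, -0.30 for histone variants, -0.25 for DNA methylation and -0.0026 for Rab genes. With a GV limit of 100 FPKM they were -0.0782 for the anaphase-promoting complex list, -0.0053 for complex I, 0.28 for the nuclear pore, -0.30 for histone variants and -0.23 for p53. With a limit of 30 they were 0.0436 for the spindle and -0.10 for splicing, and with a limit of 5 they were 0.0507 for the spindle, 0.0932 for the nuclear pore and 0.60 for DEAD- and DEAH-box helicases. With no GV limit the last 3 were 0.26, 0.34 and 0.67. A pseudocount of 0.1 gave 0.19 for the nuclear pore and one of 5 gave -0.23 for p53. For the motif, shares in positive, within-2-fold and negative genes were 18.2%, 36.0% and 44.97% in the last 200 bases and 5.04%, 13.8% and 21.6% in the last 50. Scaling gave 8.38% and 20.9% in positive and within-2-fold genes. The negative share was 23.5% in 3' UTRs of at least 1000 bases, near that of genes within 2-fold (23.9%). The reversed letters gave 14.7% in positive and 27.0% in negative genes.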

Other observations

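The excess of positive differences was spread over the genome. The median difference per chromosome lay between 0.33 (chromosome 3) and 0.83 (chromosome 16), and the share of positive genes between 33.3% (chromosome 18) and 47.5% (chromosome 16).

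A smaller class gained level in the libraries labelled Erk-/- without a 2-fold change in wild type. It held 187 genes, with median changes of 0.42 in wild type against 1.33 in the libraries labelled Erk-/-, and 96 of them were positive by at least 2-fold. The converse class, gained in wild type and within 2-fold in the libraries labelled Erk-/-, held 281 genes, of which 142 were negative.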
